A study of Mus musculus with 8 samples.

Results

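The genes described here are 10 markers of cancer-associated fibroblasts, measured in whole CT26 tumors that received an EP4 antagonist, an anti-PD-1 antibody, both or neither. They are Acta2, Pdgfra, Pdgfrb, Fap, Thy1, Pdpn, Dcn, Lum, Postn and Fbln1, and their members on the array were taken as every probe that carries 1 of these gene names. The 10 genes were themselves chosen with earlier results of these data known. Their counts, beside the shares of all genes, therefore describe the list and test nothing. That gave 21 probes for 10 of the 21484 gene names tested. CT26 is a colon carcinoma line of BALB/c mice, and 500000 cells were placed under the skin of the flank of female BALB/c mice aged 6 to 10 weeks. Treatment started at a tumor volume of 100 to 200 mm3 and lasted 2 weeks. The vehicle group received the carrier alone, the TP-16 group 75 mg/kg of TP-16 (labelled BY001) by mouth every day, the anti-PD-1 group 50 µg of antibody into the peritoneum 2 times a week, and the combination group both agents at these doses. Each of the 4 groups had 2 arrays, 8 in all. It is not stated if each array holds the RNA of 1 tumor or of several, so that the p-values measure the spread between these samples only. The question behind the arrays was how blocking EP4, a receptor of prostaglandin E2, changes the tumor alone and together with the antibody.

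Cancer-associated fibroblasts are the connective tissue cells of a solid tumor. They lay down and cross-link the collagen matrix, bind growth factors to it, and exchange signals with tumor cells, vessels and leukocytes. Platelet-derived growth factor drives their growth through Pdgfra and Pdgfrb, TGF-beta drives the contractile state marked by Acta2, and the surface peptidase Fap is a widely used marker of the activated state. None of these genes is exclusive to fibroblasts. Acta2 and Pdgfrb are also used by pericytes and smooth muscle, Thy1 by mouse T cells, and Pdpn by lymphatic endothelium and some tumor cells. In RNA from a whole tumor, more cells of a type and more RNA per cell cannot be told apart.

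Each value below is a level: the log2 intensity of a probe minus the 75th percentile of its array, so that 0 is the brightness of the array's 75th percentile. Levels of different genes come from different probes and are not set against each other. The probes well above background made up 51.4% to 59.7% of each array, no spot was saturated, and the fit in limma over the 8 arrays left 4 residual degrees of freedom. All arrays lay on 1 slide, with the antibody following the row and TP-16 following the pair of columns, so that position and treatment cannot be told apart. Raw brightness differed too. The 75th percentile intensity was 371 to 415 on the arrays without TP-16, 530 to 551 with TP-16 alone and 607 to 734 with the combination. The part of this brightness in the differences below was not tested. A probe was tested where some group had both of its arrays well above background, which 20 of the 21 probes met, and the brightest probe of each of the 10 genes was well above background on all 8 arrays. That probe stands for its gene unless another is named. Following the threshold in the methods, a gene was called where the groups differed by 2-fold or more and the p-value before adjustment was 0.05 or less. The Benjamini-Hochberg adjusted p over all probes is given beside it.

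Postn, Fbln1, Fap and Pdgfra were higher in combination-treated than in vehicle-treated tumors, by 3.95-fold, 3.53-fold, 2.65-fold and 2.34-fold. These 4 of 10 genes were called, all of them upward, where 17.0% of all genes were called in either direction and 6.65% upward. With an adjusted p of at most 0.05 in limma, 3 of the 4 remained (Postn, Fbln1 and Pdgfra), against 14.2% of all genes in either direction and 5.59% upward. Both combination arrays lay above both vehicle arrays for 9 of the 10 genes, where 23.2% of all genes did so, and Pdpn was the exception. The median log2 difference of the 10 genes was 0.76, and that of all genes tested was −0.24. Without combination replicate 2, no member kept an adjusted p of at most 0.05 in limma at a fold of 2, with adjusted p = 0.065 for Pdgfra, 0.0777 for Postn and 0.0962 for Fbln1, at log2 differences of 1.10, 1.79 and 1.55. In a limma fit of the 2 groups alone the adjusted p was 0.0635 for all 3, and by the methods' t-test 0 members passed after adjustment, at 0.174 for Pdgfra and Fbln1 and 0.184 for Postn.

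**Figure D1:**
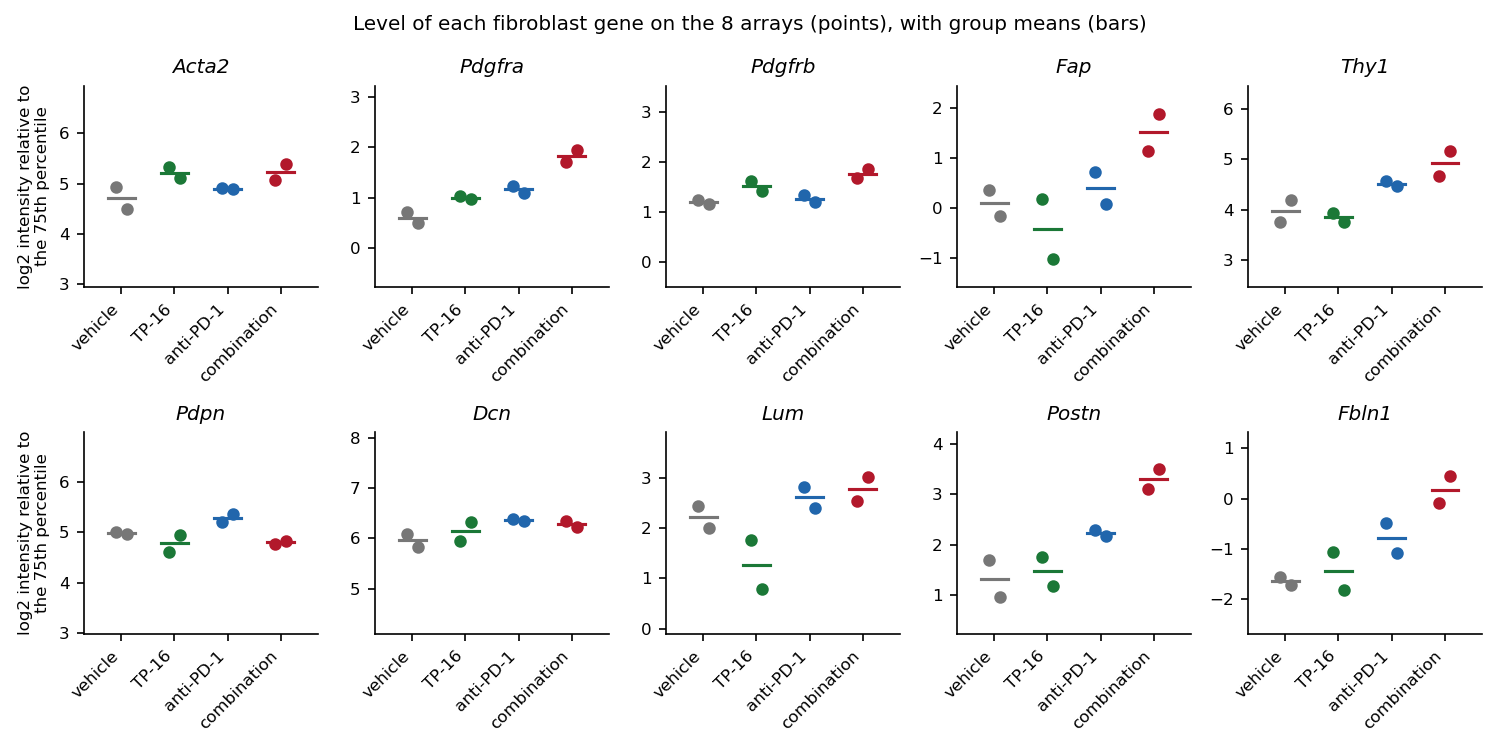
Level of the 10 fibroblast genes (y axis, log2 intensity relative to the 75th percentile of the array; every panel spans the same number of log2 units) in the 4 treatment groups (x axis). Points are single arrays and bars are the means of 2 arrays. Both combination arrays of Postn, at 3.11 and 3.50, sit above the other 6 arrays, while the 8 points of Pdpn stay between 4.62 and 5.36.

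Among the matrix genes, Postn encodes periostin, a secreted protein that promotes collagen cross-linking and cell adhesion. Its level was 1.69 and 0.96 in vehicle, 1.76 and 1.17 with TP-16, 2.28 and 2.17 with anti-PD-1, and 3.11 and 3.50 with the combination. The TP-16 arrays overlapped the vehicle arrays, the anti-PD-1 arrays lay above both, and the combination arrays lay above all others. The log2 difference between combination and vehicle was 1.98 ± 0.31 (SE, limma, 2 arrays per group, adjusted p = 0.0114). With the brightest probes, Postn was the only member called in the combination against anti-PD-1 alone, at 2.11-fold (unadjusted p = 0.0141, adjusted p = 0.114 in limma).

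Fbln1 encodes fibulin-1, a glycoprotein of basement membranes and elastic fibers. Its level was −1.55 and −1.73 in vehicle, −1.06 and −1.82 with TP-16, −0.49 and −1.08 with anti-PD-1, and −0.09 and 0.45 with the combination. The combination arrays lay above the others and the anti-PD-1 arrays above vehicle, while TP-16 overlapped both vehicle and anti-PD-1. The log2 difference between combination and vehicle was 1.82 ± 0.34 (SE, adjusted p = 0.0154 in limma). Against anti-PD-1 alone it was 0.96 ± 0.34, just under a fold of 2 at 1.95-fold (unadjusted p = 0.0294, adjusted p = 0.15 in limma).

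Lum and Dcn encode lumican and decorin, small leucine-rich proteoglycans that bind collagen fibrils and set their spacing. Lum stood at 2.43 and 2.00 in vehicle, 1.76 and 0.79 with TP-16, 2.83 and 2.40 with anti-PD-1, and 2.55 and 3.01 with the combination. Its TP-16 arrays were the lowest of the 8, and its combination and anti-PD-1 arrays overlapped. The level of Dcn was 6.09 and 5.83 in vehicle, 5.96 and 6.32 with TP-16, 6.38 and 6.34 with anti-PD-1, and 6.34 and 6.22 with the combination. Neither gene was called in the combination against vehicle, with log2 differences of 0.56 (95% confidence interval −0.35 to 1.48) for Lum and 0.32 (−0.09 to 0.73) for Dcn. Under quantile normalization that of Dcn was 0.78 (adjusted p = 0.02 in limma), and in the authors' log2 values 0.79, still below a fold of 2. Against TP-16 alone the combination was 2.83-fold higher in Lum (unadjusted p = 0.00717, adjusted p = 0.138 in limma).

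Of the receptors, Pdgfra binds several platelet-derived growth factor dimers and marks most tissue fibroblasts. Its level was 0.72 and 0.49 in vehicle, 1.03 and 0.96 with TP-16, 1.24 and 1.08 with anti-PD-1, and 1.70 and 1.95 with the combination. No pair of groups overlapped, and the order was vehicle, TP-16, anti-PD-1, combination. The log2 difference between combination and vehicle was 1.22 ± 0.14 (SE, adjusted p = 0.0102 in limma), which carried the smallest p of the 10 genes. The dimmer Pdgfra probes, described below, did not share this rise, with log2 differences of −1.05 and 0.04. The neighbours TP-16 and anti-PD-1, at log2 differences from vehicle of 0.40 and 0.56, were not compared with each other.

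Pdgfrb, the receptor shared with pericytes, stood at 1.24 and 1.16 in vehicle, 1.62 and 1.42 with TP-16, 1.33 and 1.20 with anti-PD-1, and 1.68 and 1.85 with the combination. The arrays without TP-16 lay between 1.16 and 1.33 and those with it between 1.42 and 1.85. Its log2 difference between combination and vehicle, 0.57 ± 0.13, passed the adjusted p (0.0251 in limma) at a fold of 1.48, below the fold of 2 that a call needs.

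Among the surface proteins, Fap is a serine peptidase of activated fibroblasts. Its level was 0.36 and −0.16 in vehicle, 0.18 and −1.02 with TP-16, 0.72 and 0.09 with anti-PD-1, and 1.14 and 1.87 with the combination. The combination arrays were the highest of the 8, and the other 3 groups overlapped one another. The log2 difference between combination and vehicle was 1.40 ± 0.48 (SE, unadjusted p = 0.0279, adjusted p = 0.0718 in limma). It was no longer called without vehicle replicate 2 (1.15, unadjusted p = 0.118) or without combination replicate 2 (1.04, unadjusted p = 0.143), nor by the methods' t-test on all arrays, at an unadjusted p of 0.0885 for the same difference of 1.40.

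Thy1, a glycolipid-anchored protein of fibroblasts and T cells, stood at 3.75 and 4.20 in vehicle, 3.94 and 3.76 with TP-16, 4.57 and 4.46 with anti-PD-1, and 4.67 and 5.17 with the combination. The 4 arrays with antibody lay above the 4 without it. The log2 difference between combination and vehicle was 0.95 ± 0.22 (adjusted p = 0.0274 in limma), a fold of 1.93. Since mouse T cells also carry Thy1, its values stand beside those of the T-cell markers. Of these, 8 of 10 were called higher in the combination, where 6.65% of all genes were, and 5 passed the adjusted p in limma at that fold. Their median log2 difference was 2.80 (−0.24 for all genes). The part of T cells in the Thy1 difference was not tested.

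Pdpn, a mucin-like protein that binds the platelet receptor Clec1b, did not follow the others. Its level was 5.02 and 4.97 in vehicle, 4.62 and 4.95 with TP-16, 5.21 and 5.36 with anti-PD-1, and 4.78 and 4.83 with the combination. Both combination arrays lay below both vehicle arrays, as they did for 50.3% of all genes. The log2 difference was −0.19 (95% confidence interval −0.54 to 0.16, adjusted p = 0.341 in limma), where the median of all genes was −0.24. The sign turned, with a difference of 0.09, under quantile normalization and in the authors' log2 values. Against anti-PD-1 alone the combination was 1.40-fold lower (log2 difference −0.48 ± 0.14, unadjusted p = 0.0159, adjusted p = 0.118 in limma).

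The contractile member, Acta2, encodes smooth muscle alpha-actin. Its brightest probe read 4.93 and 4.50 in vehicle, 5.33 and 5.11 with TP-16, 4.92 and 4.89 with anti-PD-1, and 5.08 and 5.39 with the combination. The TP-16 and combination arrays overlapped, and both lay above vehicle. The log2 difference between combination and vehicle was 0.52 ± 0.19 (unadjusted p = 0.0363, adjusted p = 0.0867 in limma), a fold of 1.43 that was not called. Under quantile normalization the difference was 0.81 (adjusted p = 0.0518 in limma), also below a fold of 2. Averaged over all tested probes of Acta2 it was 1.03, past a fold of 2.

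**Figure D2:**
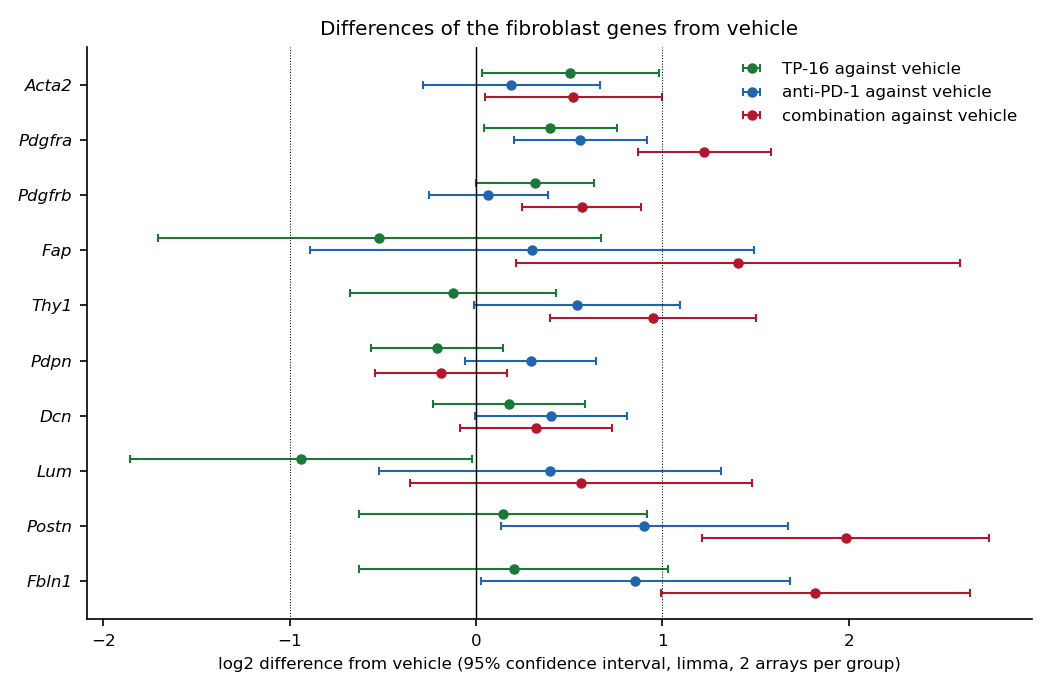
Log2 difference from vehicle (x axis, point and 95% confidence interval from limma, 2 arrays per group) of the 10 fibroblast genes (y axis), with 1 colour per treatment. Dotted lines mark a fold of 2. The combination intervals of Postn and Pdgfra start at 1.21 and 0.87, while that of Pdpn runs from −0.54 to 0.16.

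Against vehicle, neither agent alone gave a call among the 10 genes. With TP-16, 0 of 10 were called against vehicle, where 6.64% of all genes were, and 0 had an adjusted p of at most 0.05 in limma at that fold, where 0.0559% of all genes did. Whatever the fold, an unadjusted p of 0.05 or less was reached by 3 members and by 27.8% of all genes: Acta2 at 0.51 ± 0.19 and Pdgfra at 0.40 ± 0.14 upward, and Lum at −0.94 ± 0.37 downward on the log2 scale. The median log2 difference of the members was 0.16 (−0.15 for all genes), and it turned to −0.10 without TP-16 replicate 1, where Lum was called at −1.42. In this comparison 5 of 10 T-cell genes were called higher (Cd3e, Cd8a, Cd2, Cd5 and Lck, named after their values were seen), at a median of 1.89 and a sum of 4.76 to 5.04 with TP-16 against 3.14 to 4.38 in vehicle, and their part in the members' values was not tested.

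With anti-PD-1, 0 of 10 were called, where 4.11% of all genes were, and 0 passed the adjusted p at that fold, where 0.0745% did. Whatever the fold, 3 members had an unadjusted p of 0.05 or less, against 15.0% of all genes: Postn at 0.90 ± 0.31, Fbln1 at 0.86 ± 0.34 and Pdgfra at 0.56 ± 0.14. All 10 differences were above 0, with a median of 0.40 (−0.10 for all genes). Both anti-PD-1 arrays lay above both vehicle arrays for 6 of 10 genes, where 15.7% of all genes did so. Postn was called without vehicle replicate 1 (log2 difference 1.27) and Fbln1 without anti-PD-1 replicate 2 (1.15). Markers of other cells moved in this comparison too. Of 10 T-cell genes 3 were called higher (Cd3e, Cd2 and Cd5, named likewise), with a list median of 1.91 and a sum of 3.14 to 4.38 in vehicle and 4.72 to 5.05 with anti-PD-1. Of the 5 fat genes that passed the filter through more than 1 group, 2 were called higher (Retn, resistin, and Cfd, adipsin, named after their values were seen), with a median of 1.13 and a sum over all 6 fat genes of 0.50 to 1.92 in vehicle and 2.29 to 2.71 with anti-PD-1. None of these genes passed the adjusted p in limma at a fold of 2, and their part in the differences of the members was not tested.

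The combination was set against each agent alone, comparisons that share the combination arrays with the one above. Against TP-16, 5 of 10 genes were called, all of them upward, where 4.88% of all genes were called and 3.99% upward. They were Fap (3.79-fold), Postn (3.57-fold), Fbln1 (3.07-fold), Lum (2.83-fold) and Thy1 (2.11-fold), with SEs of 0.22 to 0.48 on the log2 scale. By the methods' t-test 1 of the 10 was called. The adjusted p in limma passed for 0 of them and for 0% of all genes, and 6 members had an unadjusted p of 0.05 or less at whatever fold, where 23.8% of all genes did. For 7 of 10 genes both combination arrays lay above both TP-16 arrays, where 23.0% of all genes did so. Against anti-PD-1, 1 of 10 was called (Postn), where 4.72% of all genes were called and 2.39% upward, and 0 after adjustment in limma, where 0.0140% of all genes were. For 7 of 10 the combination arrays lay above both anti-PD-1 arrays (23.2% of all genes), and Postn lost its call without anti-PD-1 replicate 2 or without combination replicate 2. Markers of other cell types also had medians above that of all genes in these comparisons. In each comparison, 1 of 10 T-cell, 1 of 8 macrophage and 1 of 8 endothelial genes was called higher, and 0 after adjustment in limma. Against TP-16 the list medians were 0.78 for T cells, 0.72 for macrophages and 0.85 for endothelium (−0.09 for all genes), and against anti-PD-1 they were 0.83, 0.75 and 0.67 (−0.14 for all genes). The combination sums lay above those of both agents, at 5.31 to 6.07 for T cells against 4.72 to 5.05. They were 8.25 to 8.77 for macrophages against 7.68 to 7.99, and 3.91 to 4.39 for endothelium against 3.01 to 3.67. The endothelial sum in vehicle, 3.74 to 3.94, overlapped the combination and lay above TP-16 alone, at 3.01 to 3.58. With TP-16 the endothelial median against vehicle was −0.50. The part of these cell types in the differences of the members was not tested.

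Whether the combination exceeded the sum of the agents was tested as the log2 difference between combination and vehicle less the sum of the differences of both agents alone. No member had an unadjusted p of 0.05 or less with its brightest probe, where 6.98% of all genes did, and an adjusted p of at most 0.05 in limma was reached by 0% of all genes. With the brightest probes the departures were 1.62 ± 0.68 for Fap, 1.11 ± 0.53 for Lum and 0.94 ± 0.44 for Postn, and −0.17 ± 0.27 for Acta2. With intervals from −0.06 to 3.31 for Fap and from −0.15 to 2.03 for Postn, neither an additive nor a greater effect was resolved with 2 arrays per group. Of the 9 other member probes counted, those past a fold of 2 with an unadjusted p of 0.05 or less were 1 each of Acta2 (1.03, unadjusted p = 0.0356), Fap (1.73, unadjusted p = 0.0312) and Postn (1.20, unadjusted p = 0.0312) in limma, 3 of 9, where 3.20% of all probes were. None of the 3 passed the adjusted p (0.632 to 0.642 in limma). The Postn probe that was well above background with the combination alone is not counted.

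Several members had more than 1 probe, and the probes of a gene did not always move together. A Postn probe passed the filter only through the combination group and is left out of the counts. In the combination against vehicle, 11 of the 19 other tested probes were called higher, where 6.12% of all probes were, and 1 was called lower. Against anti-PD-1 alone 6 of the 19 were called higher, where 2.30% of all probes were: 3 of Postn, 2 of Acta2 (2.42-fold and 2.06-fold) and 1 of Fap (2.53-fold), the last 3 not the brightest of their gene, with adjusted p of 0.0833 to 0.134 in limma. For Postn, the other probes well above background on all 8 arrays gave log2 differences of 1.86 and 2.07 beside 1.98, and the remaining one, well above background on the 2 combination arrays alone, gives no lower bound on the fold against vehicle. For Fbln1 the 3 probes gave 1.34, 1.63 and 1.82. The direction was thus shared by the 3 probes of each gene that were counted.

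Fap was read by 2 probes, at chr2:62340501-62340560 and chr2:62339001-62339060 on the minus strand in the mm9 build of the array's annotation. The first had levels of −1.66 and −2.20 in vehicle and −0.46 and 0.00 with the combination, a log2 difference of 1.70 ± 0.44 (adjusted p = 0.0335 in limma), where the brighter second one had an adjusted p of 0.0718. The call of Fap after adjustment therefore depended on the probe. The sequence of the first is shown because it carries that call.

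Fap probe: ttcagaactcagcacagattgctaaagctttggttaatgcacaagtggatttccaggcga

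Acta2 had 4 probes, of which 1 was not well above background on any array. Its brightest probe spans 3255 bases of chr19:34322995-34326249 on the minus strand (mm9), so that its 60 bases cross an exon junction, and the 2 others tested lie farther along the gene, at chr19:34316060-34316119 and chr19:34315697-34315756. Those read 2.22 and 1.87 in vehicle against 2.97 and 3.60 with the combination, and −2.97 and −3.58 against −2.14 and −1.75. Their log2 differences of 1.23 ± 0.27 and 1.33 ± 0.32 were called (adjusted p = 0.0223 and 0.0283 in limma), while that of the brightest probe, 0.52, was not. The brightest probe is shown because it gives Acta2 its value here. It reads coding sequence, which is closely alike among actin genes, and whether it also reads other actins was not tested. Actg2, the gamma-actin of smooth muscle, named after its values were seen, stood at 2.69 and 2.21 in vehicle and 2.77 and 3.09 with the combination.

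Acta2 probe: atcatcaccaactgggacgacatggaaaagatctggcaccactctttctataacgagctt

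Pdgfra had 3 tested probes that disagreed in direction. The brightest lies at chr5:75593888-75593947 (mm9). A second, at chr5:75571099-75571158, read −2.66 and −2.75 in vehicle and −3.65 and −3.87 with the combination, a log2 difference of −1.05 ± 0.28 (adjusted p = 0.0366 in limma), and the remaining one, at chr5:75579392-75579451, gave 0.04 ± 0.17. Averaged over its 3 probes, the log2 difference of Pdgfra was 0.07 in place of 1.22. The rise of Pdgfra thus rests on the brightest probe, and which transcripts the dimmer probes read was not tested.

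**Figure D3:**
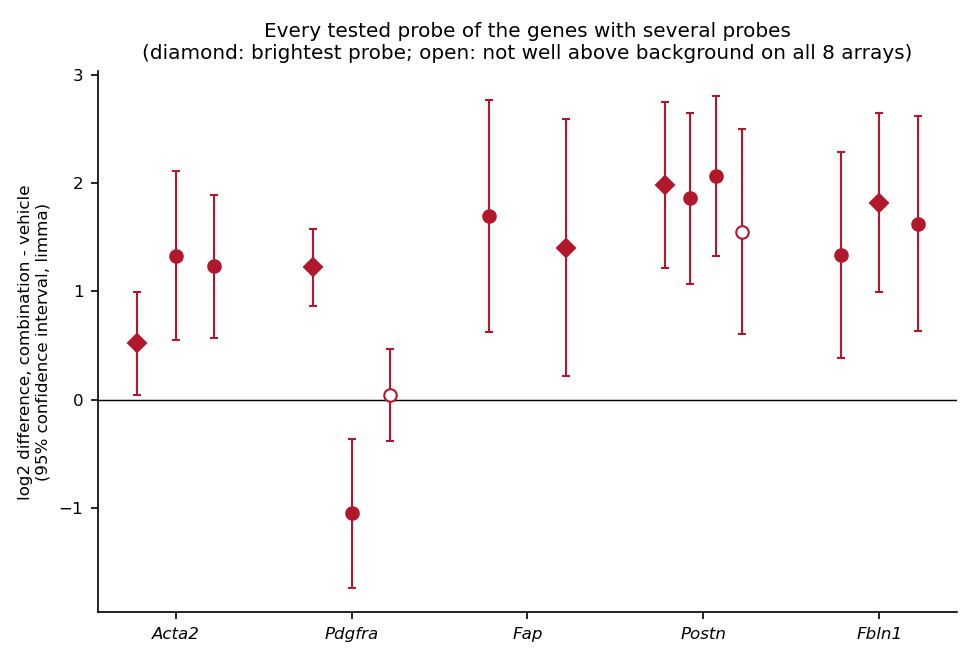
Log2 difference between combination and vehicle (y axis, with 95% confidence intervals from limma) of every tested probe of the 5 genes with several probes (x axis). Diamonds are the brightest probe of a gene and open circles are probes that were not well above background on all 8 arrays. The probes of Fap and Fbln1 and the 3 counted probes of Postn lie above 0, the open circle of Postn has no bound against vehicle, and those of Pdgfra run from −1.05 to 1.22.

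Promoter windows from RefSeq (GRCm38.p6) were matched by symbol for 5 of the 10 members. The 250 bases before the start are shown for Postn, Pdgfra and Fbln1, the members that passed the adjusted p and the fold in the combination. Where RefSeq lists several starts, the one farthest downstream was taken. Capitals mark matches on either strand to TATAAA, the core promoter element that places the start, to CAGAC, the short element that Smad proteins bind, and to the E-box CANNTG. A match is a description of the letters and no evidence of binding.

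Postn, chr3:54360857-54361106, plus strand: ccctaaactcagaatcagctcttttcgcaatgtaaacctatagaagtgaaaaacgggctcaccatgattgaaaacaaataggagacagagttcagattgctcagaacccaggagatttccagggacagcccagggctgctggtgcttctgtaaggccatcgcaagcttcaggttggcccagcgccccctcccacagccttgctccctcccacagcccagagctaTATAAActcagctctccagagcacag

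Pdgfra, chr5:75152001-75152250, plus strand: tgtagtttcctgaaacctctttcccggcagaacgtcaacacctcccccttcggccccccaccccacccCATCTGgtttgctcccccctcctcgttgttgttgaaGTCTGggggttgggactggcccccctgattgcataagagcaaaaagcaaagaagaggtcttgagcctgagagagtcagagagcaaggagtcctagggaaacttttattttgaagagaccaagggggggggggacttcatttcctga

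Fbln1, chr15:85205758-85206007, plus strand: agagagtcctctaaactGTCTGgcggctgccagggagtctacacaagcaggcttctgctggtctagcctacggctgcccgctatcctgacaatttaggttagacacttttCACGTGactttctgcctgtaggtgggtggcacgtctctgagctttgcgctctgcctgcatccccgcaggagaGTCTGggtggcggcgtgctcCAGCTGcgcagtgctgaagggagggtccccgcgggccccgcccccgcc

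The Postn window held TATAAA, with its first base 26 bases before the start, and neither of the other motifs. Pdgfra and Fbln1 held no TATAAA, 1 and 2 matches to CAGAC, and 1 and 2 matches to CANNTG. Over all 32851 windows of this length, 12.4% held TATAAA, 42.2% held CAGAC and 66.2% held CANNTG. Another start that RefSeq lists for Postn has a match to CAGAC 191 bases before it, so that the matches of Postn depend on the start taken.

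The matrix around these genes was described with lists of related genes, whose counts are to be read against the 17.0% of all genes called in this comparison and whose medians against −0.24. Of the fibrillar collagens and their cross-linking enzymes, 20 were tested, of which Col11a1 and P4ha3 passed the filter through 1 group only. Of the 18 others, 6 were called higher in the combination against vehicle and 0 lower, with a median log2 difference of 0.71. The sum of all 20, the log2 of their added intensities, was 8.77 to 8.88 in vehicle and 9.35 to 9.36 with the combination. Col1a1, the main chain of type I collagen, was at 4.69 and 4.07 in vehicle and 6.18 and 6.49 with the combination, a log2 difference of 1.95 ± 0.36 (adjusted p = 0.0153 in limma), and Loxl1, a lysyl oxidase of elastic fibers, differed by 1.74 ± 0.22 (adjusted p = 0.0102). Col11a1, a minor fibrillar collagen, was well above background on the 2 combination arrays alone, so that no fold is given for it. Serpinh1, the collagen chaperone, and Pcolce, which helps to trim procollagen, had log2 differences of −0.27 and −0.11, were not called, and were named after their values were seen. Of the same 18 genes, 7 were called higher against TP-16 alone, where 3.99% of all genes were, and 1 against anti-PD-1 alone, where 2.39% were, with 0 after adjustment in limma in both.

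Among 9 tested small leucine-rich proteoglycans other than Dcn and Lum, 2 passed the filter through 1 group only, and of the 7 others 4 were called higher and 0 lower, with a median of 1.01. The sum of all 12 on the array was 3.96 to 3.99 in vehicle and 4.94 to 5.02 with the combination. Podn, podocan, was at −2.70 and −2.56 in vehicle and −0.61 and −0.41 with the combination, a log2 difference of 2.12 ± 0.35 (adjusted p = 0.0124 in limma). Prelp, which anchors basement membranes to connective tissue, differed by 1.63 ± 0.16 and Fmod, fibromodulin, by 1.62 ± 0.17 (adjusted p = 0.0102 for both). Here TP-16 alone also gave 3 calls of these 7, all upward, where 6.64% of all genes were called and 1.56% upward: Prelp at 1.41, Omd, osteomodulin, at 1.13 and Podn at 1.68, none of them past the adjusted p (0.0524 to 0.0926 in limma). Omd was named for that count after its values were seen.

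Of 18 other fibulins and matricellular proteins, 5 were called higher and 0 lower, with a median of 0.55. Their sum was 8.91 to 9.11 in vehicle and 8.93 to 9.08 with the combination, so that the groups overlapped. Fbln7 differed by 2.11 ± 0.52, Efemp1 (fibulin-3) by 2.01 ± 0.37 and Wisp2, a CCN family protein, by 1.89 ± 0.36 (adjusted p = 0.0306, 0.0149 and 0.0163 in limma). The list was not uniform, since Sparc and Fn1, osteonectin and fibronectin, had log2 differences of −0.03 and −0.22. Both were named after their values were seen.

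Of 20 further fibroblast markers, Col15a1 passed the filter through 1 group only, and of the 19 others 4 were called higher and 0 lower, with a median of 0.63. The sum of all 21 on the array was lower with the combination, at 9.88 to 10.11 against 10.63 to 10.67 in vehicle. Lrrc15, a surface marker of matrix-producing tumor fibroblasts, was at −1.12 and −1.67 in vehicle and 0.33 and 0.83 with the combination, a log2 difference of 1.97 ± 0.32 (adjusted p = 0.012 in limma). The matrix metalloproteases Mmp2 and Mmp3 differed by 1.66 ± 0.43 and 1.13 ± 0.19 (adjusted p = 0.0348 and 0.0122). Broader mesenchymal markers lay below 0, with S100a4 at −0.91 and Vim, vimentin, at −0.60; both passed the adjusted p (0.0106 and 0.0207) without reaching a fold of 2, and both were named after their values were seen.

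The ligands and partners of the members varied. Of the 4 PDGF ligands, Pdgfd, which acts mainly through Pdgfrb, was called higher (1.11 ± 0.29, adjusted p = 0.0355 in limma), and the list's median was 0.36. The sum of the 4 ligands was lower with the combination, at 4.29 to 4.33 against 4.57 to 4.74 in vehicle. Of 9 further contractile genes 1 was called, Myl9, a myosin light chain, at 1.26 ± 0.25 (adjusted p = 0.0186), with a median of 0.31. The contractile sum was 5.52 to 5.54 in vehicle and 5.73 to 5.92 with the combination. Of 7 peptidases related to Fap, Dpp4 was called higher at 2.31 ± 0.33 (adjusted p = 0.0107) and Dpp10 lower at −2.08 ± 0.79 (adjusted p = 0.0907). Of 6 partners of podoplanin none was called, and ezrin (Ezr), which links it to the cytoskeleton, was at 4.90 and 4.65 in vehicle and 5.08 and 4.79 with the combination.

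Of 16 TGF-beta ligands, latent binding proteins, receptors, Smads and targets, 1 was called, Ltbp2, a latent TGF-beta binding protein family member found on elastic fibers, at 1.70 ± 0.18 (adjusted p = 0.0102 in limma), and the median was 0.10. The list of inflammatory fibroblast genes was split, with 4 of 12 called higher and 5 lower. The largest rises were complement C3 at 2.98 ± 0.32 (adjusted p = 0.0102), Ly6c1 at 2.00 ± 0.51 (adjusted p = 0.0337) and the chemokine Cxcl12 at 1.80 ± 0.40 (adjusted p = 0.0232). The lower ones, named after their values were seen, were the cytokines Il11 (−1.20), Il6 (−1.16) and Lif (−1.15), the neutrophil chemokine Cxcl1 (−1.07) and the hyaluronan synthase Has1 (−1.48). Has1 did not pass the adjusted p (0.0621 in limma), and the other 4 did (0.0122 to 0.0449). These genes are also expressed by leukocytes and tumor cells.

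**Figure D4:**
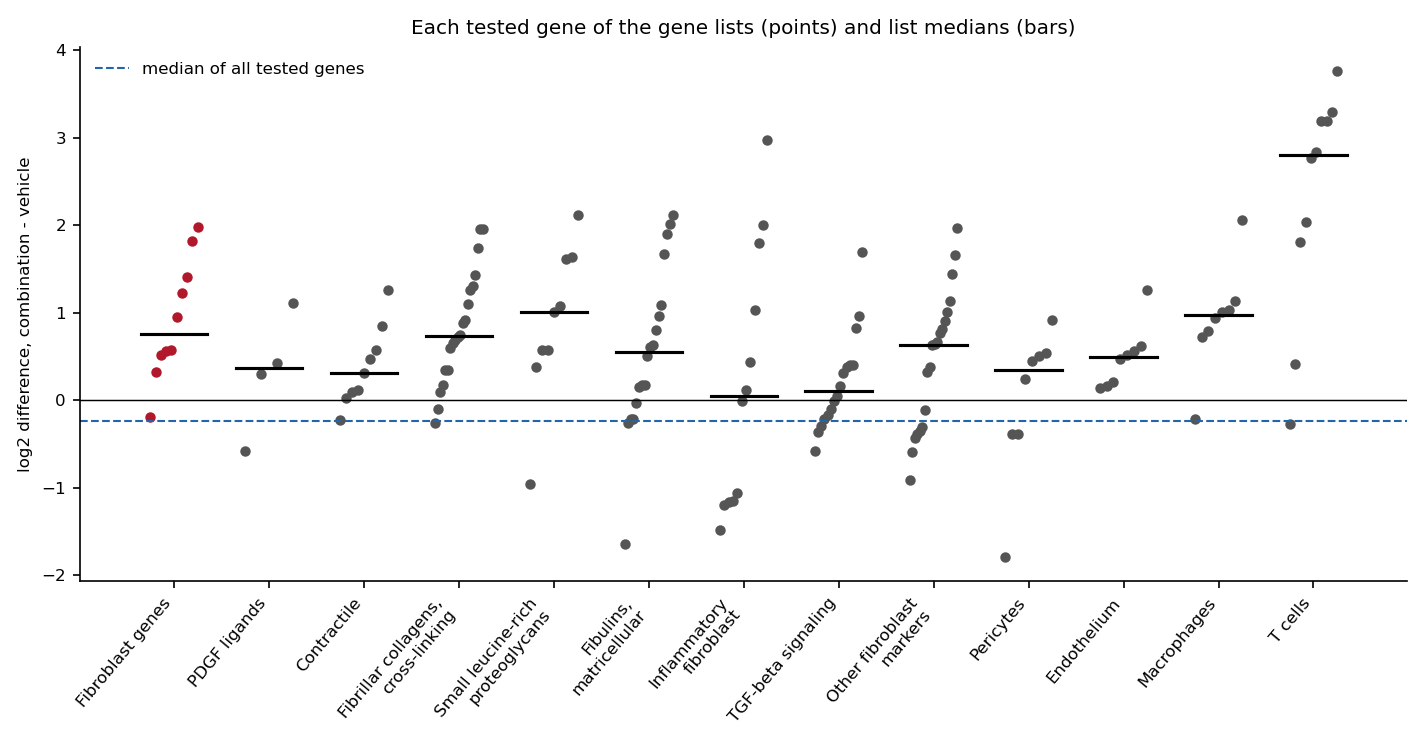
Log2 difference between combination and vehicle (y axis) of each tested gene (points) in the 10 fibroblast genes (red) and in 12 lists of related genes and other cell types (grey), with list medians (bars) and the median of all tested genes (dashed line, −0.24). The points and bars include genes that passed the filter through 1 group only, without which the collagen and proteoglycan medians are 0.71 and 1.01. The T-cell median, 2.80, is the highest of the lists shown.

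Markers of other cell types moved in the same comparison. Besides the T-cell markers, 4 of 8 macrophage genes were called higher, where 6.65% of all genes were, with a median of 0.97 (−0.24 for all genes). The T-cell sum, the log2 of the added intensities of its genes, was 3.14 to 4.38 in vehicle and 5.31 to 6.07 with the combination, and the macrophage sum 7.36 to 7.87 and 8.25 to 8.77; Cd8a was not well above background on 1 array, and the other T-cell genes were so on all 8. The same sum over the 10 fibroblast genes was 7.13 to 7.31 in vehicle, 7.28 to 7.40 with TP-16, 7.57 to 7.60 with anti-PD-1 and 7.58 to 7.73 with the combination. Among 8 endothelial genes 1 was called higher (Tek), and among 8 pericyte genes 1 was called lower (Kcnj8, −1.79 ± 0.36, adjusted p = 0.0179 in limma) at a list median of 0.34, with the pericyte sum at 4.38 to 6.34 in vehicle and 5.04 to 6.09 with the combination. The part of these cells in the differences of the fibroblast genes was not tested.

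For the tissue around the tumor, of 9 skeletal muscle genes 2 were called higher (Actn3 and Myh1, adjusted p = 0.0701 and 0.0571 in limma), with the sum at 4.37 to 5.80 in vehicle and 5.64 to 5.71 with the combination. In the combination none of 6 fat genes and none of 4 tested epidermal genes was called, while the epidermal sum reached 5.16 on a TP-16 array and 5.21 on an anti-PD-1 array against 3.03 to 3.04 with the combination. Of 6 tested epithelial genes, 2 passed the filter through 1 group only, and of the 4 others 2 were called lower: Krt8 at −2.68 ± 0.82 (adjusted p = 0.0525 in limma) and Krt18 at −1.39 ± 0.29 (adjusted p = 0.0196). Cdx2 passed the filter through vehicle only, so that no fold is given for it. The epithelial sum was 6.22 to 6.37 in vehicle and 5.88 to 6.42 with the combination, so that the groups overlapped. Epcam was well above background on 1 array and Vil1 on none, although the tumor line is labelled colorectal. None of 8 cell division genes was called, with sums of 7.79 to 7.82 in vehicle and 7.46 to 7.63 with the combination. For lymphatic endothelium, which also carries Pdpn, Flt4 was well above background on no array, Prox1 on 2, and Lyve1 differed by −1.38 ± 0.70 (adjusted p = 0.177).

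Over the 8 arrays the 10 genes formed no single pattern. The Pearson correlation of a member with the mean standardised level of the 9 others was 0.98 for Postn, 0.96 for Fbln1, 0.94 for Pdgfra, 0.85 for Fap and 0.84 for Thy1, then 0.66 for Lum, 0.62 for Pdgfrb, 0.48 for Dcn, 0.46 for Acta2 and −0.18 for Pdpn. These values pool the 4 groups and share the same arrays and scaling, so that they describe the data and test nothing. Of 21474 genes outside the 10, those most like their mean profile included Ptgir, the prostacyclin receptor, at 0.99, Nbl1, a BMP antagonist, at 0.99, the chemokine Ccl3 at 0.98 and Ndn, necdin, at 0.98. Ptgir stood at −2.13 and −2.49 in vehicle, −1.83 and −2.19 with TP-16, −1.47 and −1.68 with anti-PD-1, and −1.27 and −0.90 with the combination.

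The scaling of the arrays changed the differences, by unequal amounts between members. With the 75th percentile, the median log2 difference of all probes between combination and vehicle was −0.20, and with quantile normalization it was −0.01. The median of the 10 genes was 0.76 with the former and 1.00 under quantile normalization, and was also 1.00 in the authors' log2 values. The sorted authors' values differed between arrays by at most 0.00115, as quantile-normalized values do, so that they are not a separate second scaling. Thy1 then passed a fold of 2, at a log2 difference of 1.19 with quantile normalization, while Pdgfra went from 1.22 to 1.24 and Pdgfrb from 0.57 to 0.58. Relative to the median of all probes under the 75th percentile, Postn differed by 2.18, Fbln1 by 2.02, Pdgfra by 1.43 and Pdpn by 0.01.

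**Figure D5:**
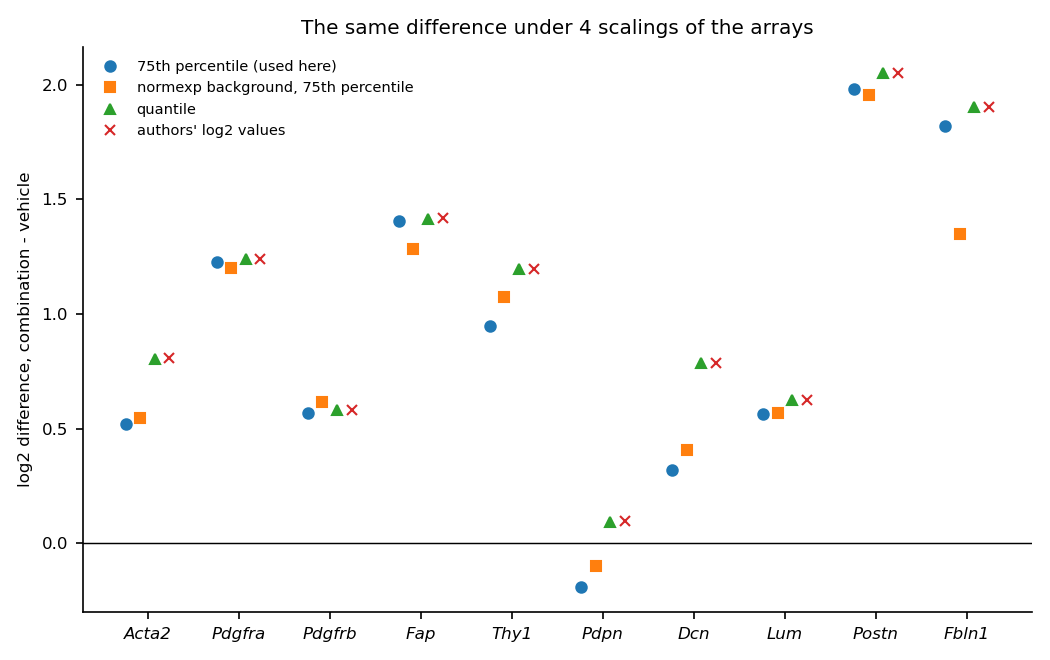
Log2 difference between combination and vehicle (y axis) of the 10 fibroblast genes (x axis) under 4 scalings of the arrays: the 75th percentile used here, the same after normexp background correction, quantile normalization and the authors' log2 values. Points are differences of the means of 2 arrays. Postn stays between 1.96 and 2.05, and Pdpn lies at −0.19 with the 75th percentile and at 0.09 with quantile normalization.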

How the data were processed

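Fluorescence on 8 one-colour Agilent mouse arrays was analysed. The authors deposited the scanner output, in which the intensity of each spot was background-subtracted by Agilent Feature Extraction 10.7.1.1 (named in the submitters' processing notes), and their own log2 values, made in GeneSpring by a normalization that the methods do not name; the authors' log2 columns had the same median, 5.16, on every array. The labels give a column kit for RNA extraction and the methods TRIzol.

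Control spots and 38 probes marked as outliers were left out, spots of a probe were averaged, and log2 intensity was set relative to its array's 75th percentile. A probe entered the test (31912 of 56567) where some group had it well above background on both arrays, in a single limma fit of 4 group means without a block. Gene names and mm9 positions are those of the array's annotation, and a gene is its probe with the highest mean over the 8 arrays. Folds are differences of mean log2 values. For a probe not above background in a group, a lower bound on the fold compares the bright mean with the dim arrays' lowest well-above-background signal, or with the probe's own signal where higher.

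The 10 genes and all lists were chosen with earlier results of these data known. Named genes were all members, up to 3 called genes with the largest change from each related list, or else its brightest, and the 5 genes most like the members' mean profile, of which 1 is not reported here; others are marked in the text as named after their values were seen. The number of arrays limits the precision. Deviations of same-numbered arrays correlated at −0.19 to 0.29, so the numbers were not taken as pairs. Alternatives were other scalings, filters, fits, thresholds, the methods' t-test, the replicate block and leaving out each array; the mean of all tested probes of a gene was added after seeing the data. Software was R 4.3.3, limma 3.58.1, Python 3.11.15, pandas 2.3.3 and matplotlib 3.10.9.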

Additional observations from a re-analysis of the deposited data

How the results depend on the processing

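In the combination against vehicle, the count of members called stayed at 3 to 5 of 10 under the alternatives run, and the direction of Postn, Fbln1, Fap and Pdgfra did not turn. Averaged over all tested probes, however, the log2 difference of Pdgfra was 0.07 in place of 1.22. After adjustment, the count of 3 became 5 with normexp and 0 in a fit of those groups alone and by the methods' t-test, and was 0 to 4 when an array was left out (0 without combination replicate 2). The members' median, 0.76, was 1.00 with quantile normalization and with the authors' log2 values, and 0.592 to 0.996 when an array was left out. In the combination against TP-16, the 5 calls were 1 by the methods' t-test, and the 0 after adjustment became 1 with normexp and 1 with trended, robust moderation. Against anti-PD-1, the 1 call became 2 with normexp, 2 in a fit of those groups alone and 3 at a fold of 1.5, and was 0 to 2 with an array left out; after adjustment normexp gave 1 in place of 0. For TP-16 alone, a fold of 1.5 gave 1 call and leaving out an array gave 0 to 1, and for anti-PD-1 alone 2 calls and 0 to 1. The members' median under TP-16, 0.16, was −0.0556 for the mean of all tested probes and −0.0959 to 0.298 with an array left out. The replicate block changed no call: 4 members in the combination, 3 of them after adjustment. The slide could not be fitted as a block, since there was 1 slide, and the departure from additivity has no value in fits of 2 groups. The causes of these changes were not tested.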
